A study of Mus musculus with 24 samples.

Results

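The genes described here are 10 enzymes of ammonia disposal and amino acid breakdown: Cps1, Otc, Ass1, Asl and Arg1 of the urea cycle, and Tat, Tdo2, Hal, Ddo and Aass of the breakdown of single amino acids. They were chosen by name, as every probe whose name in the array file, or whose current symbol by accession, is one of the 10. This gave 16 probes of 41174 and 10 genes of 27573 gene names. Otc and Ddo had 3 probes each, Ass1 and Tdo2 had 2 each, and the others had 1. The arrays measured total RNA of brain and liver from newborn female mice of the (C57BL/6 x DBA2) x 129/Sv background, on 24 single-colour arrays with 4 per group and tissue. G20 animals were cumulus-cell clones after 20 generations of serial cloning, CC animals were clones made from cumulus cells, and NC animals were controls made by ICSI, the injection of a single sperm into an oocyte. The labels name no further allele, treatment or agent for any group. All G20 arrays carry one source name, so the labels do not show that they came from separate animals, and p-values measure the spread between arrays, which may be technical.

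The urea cycle turns ammonia and bicarbonate into urea, mainly in hepatocytes. Cps1 and Otc work in the mitochondrion, and Ass1, Asl and Arg1 complete the cycle in the cytosol. Ammonia reaches the cycle from the breakdown of amino acids, which for several of them begins with an enzyme that is abundant in liver: Tat for tyrosine, Tdo2 for tryptophan, Hal for histidine and Aass for lysine. Ddo, D-aspartate oxidase, is a peroxisomal flavoenzyme that oxidises D-aspartate and releases ammonia. In rodents, liver Tat and Tdo2 are known to come on around and after birth under glucocorticoids and glucagon.

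Levels are given as log2 of the scanner's processed signal minus the same array's 75th percentile, so that 0 is the 75th percentile of an array and each unit is a doubling. A level of one probe cannot be set against that of another. Each group of each tissue had a slide of its own, and effects of slide and group cannot be told apart. NC and G20 livers were scanned in one session, NC and G20 brains in another 49 days later, and CC arrays of both tissues 221 days after the first. For CC, scan session and group therefore cannot be told apart, whereas G20 and NC of a tissue share a session. The 75th percentile of the signal was 420.2 to 536.4 on G20 liver arrays, 225.9 to 253.3 on CC liver arrays and 263.0 to 323.5 on NC liver arrays. In the series matrix that the authors deposited, the CC columns carry an extra factor for each probe that the scanner values lack, so CC comparisons were also made there. All 7 measured hepatocyte markers were above background on every liver array, and all 6 neuron markers on every brain array, while 4 of the 7 hepatocyte markers (Alb, Afp, Ttr and Ahsg) were above background on every brain array as well, and Apoa1 and Apob on none. The summed level of the hepatocyte markers, relative to the 75th percentile, was 0.507 to 1.98 in G20 brains, 1.36 to 4.05 in CC brains and 1.60 to 2.20 in NC brains, far below that in liver. In brain these sums mainly follow Ttr, whose mean log2 level was −0.68 in G20, 0.68 in CC and 0.77 in NC. Alb, Afp and Ahsg averaged −4.50, −3.98 and −3.85 in NC brains. In these bulk tissues fewer cells of a type and less RNA per cell cannot be told apart.

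All 10 genes were measured in liver, and 9 of them were far higher there than in brain in every group. Of the 10 genes, 9 were higher in liver than in brain in G20 animals (89.1% of all genes were called in either direction, 46.3% as higher), 10 in CC animals (84.6% and 44.2%) and 10 in NC animals (89% and 46.4%). A gene is called where limma's Benjamini-Hochberg adjusted p is under 0.05. The median difference of the 10 genes was 8.11 in G20, 7.91 in CC and 7.93 in NC on the log2 scale, beside a median of 0.09, 0.09 and 0.07 over all genes. Cps1, carbamoyl phosphate synthetase 1, which makes the cycle's entry compound, had fitted differences of 12.22 ± 0.17 in G20, 11.94 ± 0.17 in CC and 12.13 ± 0.17 in NC (log2, SE; limma adjusted p = 2.09e-23, 4.22e-23 and 2.04e-23). Cps1 was above background on 3 of 4 G20 brain arrays, no CC brain array and all 4 NC brain arrays. Its fold in CC therefore rests on undetected brain signal, and no lower bound is given for it.

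Otc and Tdo2 were not above background on any brain array with the probe used between tissues. For them the liver mean was set against a floor on each brain array. That floor is the higher of the probe's own signal and the lowest signal among probes well above background. Undetected probes can lie above it, so these folds are not lower bounds. Otc, ornithine transcarbamylase, in liver was 1623-fold above the floor in G20, 1012-fold in CC and 1531.5-fold in NC. For Tdo2, tryptophan dioxygenase, the folds above the floor were 16.3 in G20, 22.1 in CC and 62.9 in NC. Arg1 was above background on 1 G20, no CC and 1 NC brain array, and in CC its liver mean was 1496-fold above the floor. Asl, argininosuccinate lyase, was above background on all 12 brain arrays, as were Ass1, Hal and Aass. It averaged 3.20 ± 0.25 in liver and 0.53 ± 0.11 in brain in G20 (SD, n = 4 arrays each), 3.48 ± 0.24 and 0.16 ± 0.03 in CC, and 3.46 ± 0.03 and 0.54 ± 0.09 in NC. Its liver level was 6.35-fold, 10.02-fold and 7.57-fold its brain level in G20, CC and NC (limma adjusted p = 7.9e-16, 2.08e-17 and 1.56e-16). Ddo was the one gene of the 10 whose liver and brain levels were not called different in a group: its difference was 0.58 ± 0.28 in G20 (limma adjusted p = 0.0563), against 3.31 ± 0.28 in CC and 3.68 ± 0.28 in NC (adjusted p = 2.79e-10 and 3.61e-11). The G20 difference passed the threshold in 4 of 32 alternative settings. Liver and brain of the NC and G20 groups were scanned in different sessions, and those of CC in the same session.

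**Figure D1:**
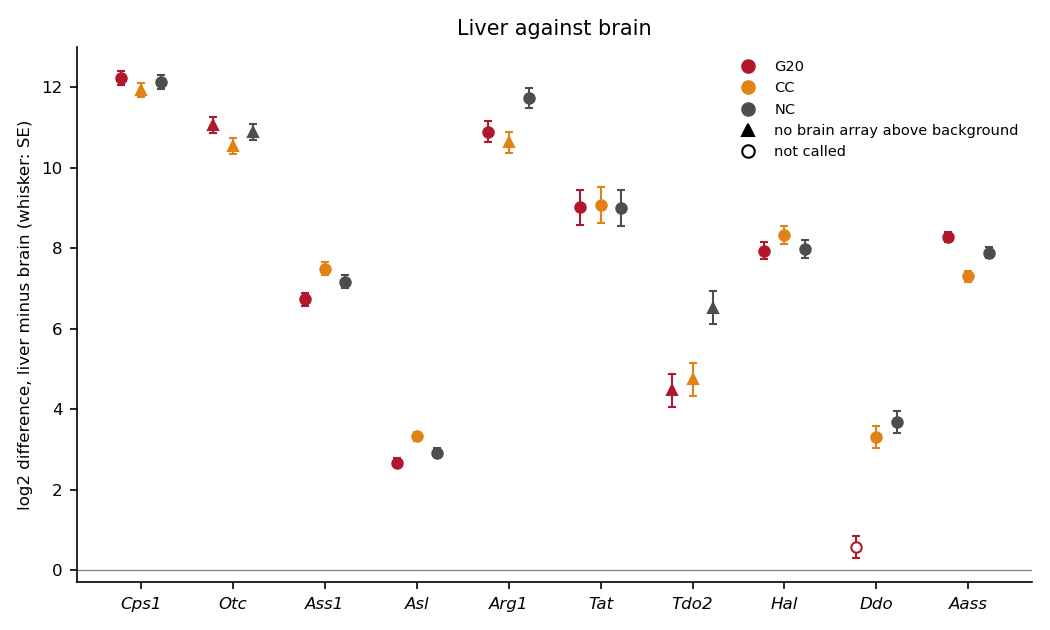
Difference between liver and brain for each of the 10 genes, in log2 units (liver minus brain, whisker: SE), in G20, CC and NC animals, 4 arrays per group and tissue. Triangles mark fitted differences for which no brain array was above background. The folds against a floor given in the text for Otc, Tdo2 and Arg1 lie below the fitted values drawn. Ddo in G20 (0.58, open symbol) is the only difference that was not called, and the lowest of the other 29 is Asl in G20 (2.67).

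In liver, 3 of the 10 genes differed between G20 and NC, with Ddo and Ass1 lower and Hal higher in G20. The share called over all genes was 7.09% (3.99% higher and 3.1% lower), and the median difference was −0.18 over the 10 genes and 0.02 over all 16267 genes tested. The arrays of the groups did not overlap for 5 of the 10 (Ass1, Arg1, Hal, Ddo and Aass), against 17.7% of all genes. CC livers differed from NC livers in 3 of the 10 (41% of all genes called, 20.5% as higher and 20.6% as lower), with Hal and Aass higher and Cps1 lower, the same 3 genes whose arrays did not overlap (38.6% of all genes). G20 differed from CC in 2 of the 10 (45.6% of all genes called, 23.7% and 21.9%), with Cps1 higher and Ddo lower in G20, and these were the 2 whose arrays did not overlap (40.6%). In both comparisons with CC the share of the 10 genes called was below that over all genes. The plot of all liver levels shows every array.

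**Figure D2:**
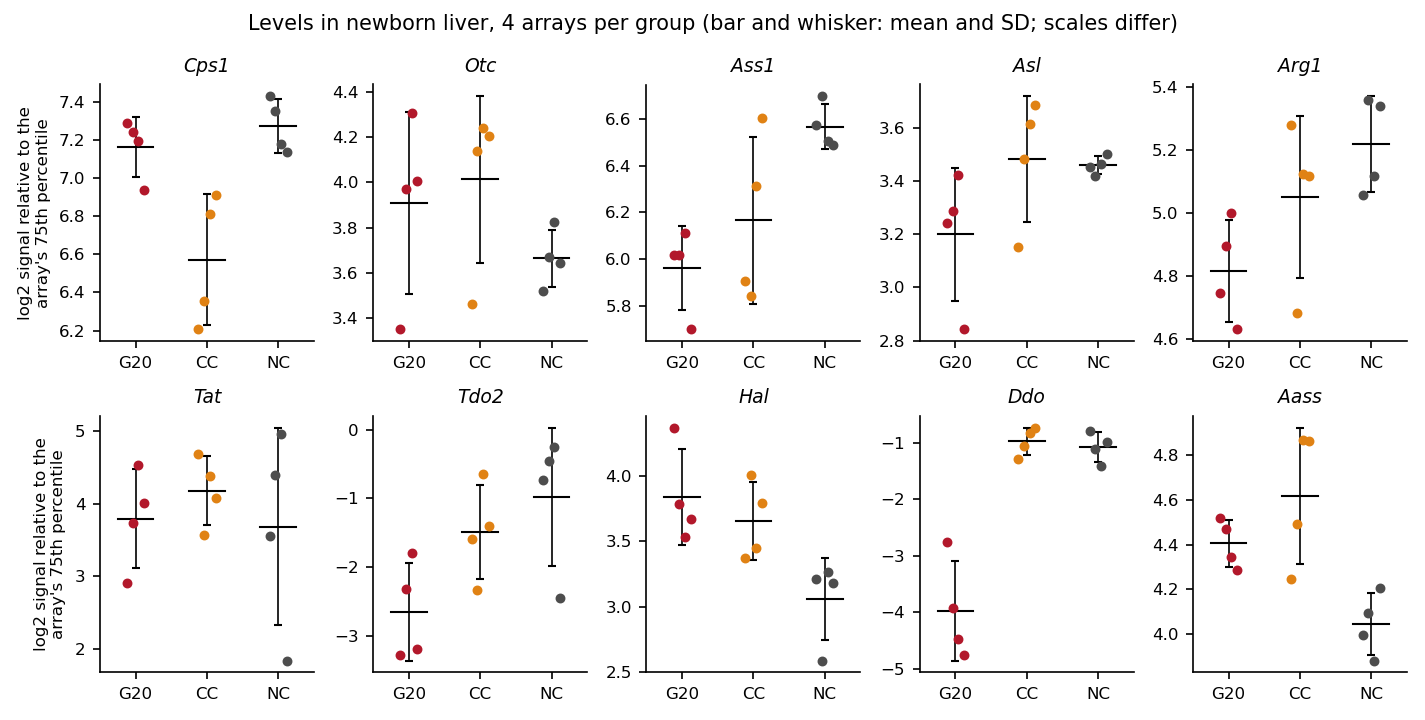
Level of each gene on every liver array (log2 signal relative to the array's 75th percentile, brightest probe), for G20, CC and NC, with mean and SD over 4 arrays. The vertical scale differs between panels. Ddo in G20 lies between −4.75 and −2.75, below all CC and NC arrays. One NC array lies at 1.83 for Tat and −2.45 for Tdo2, below the other 3.

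Cps1 had levels of 7.29, 7.24, 7.19 and 6.94 in G20 livers, 6.21, 6.35, 6.81 and 6.91 in CC livers and 7.43, 7.35, 7.18 and 7.14 in NC livers. The 4 CC arrays lay below every G20 and NC array, and G20 and NC arrays overlapped. Cps1 was 0.70 ± 0.16 lower in CC than in NC (log2 difference −0.70, limma adjusted p = 0.00393) and 0.59 ± 0.16 higher in G20 than in CC (adjusted p = 0.00881), and differed by −0.11 ± 0.16 between G20 and NC (adjusted p = 0.72). In the deposited matrix the difference was −0.17 between CC and NC (limma adjusted p = 0.498) and 0.06 between G20 and CC (adjusted p = 1.00). Of the 7 hepatocyte markers, 5 were lower in CC than in NC livers, as Cps1 was, Alb by −1.31. Apoa1 (0.14) and Apob (0.19) were not called there. The same 5 were higher in G20 than in CC livers, but Apoa1 was lower (−0.45). Over all genes 23.7% were called higher and 21.9% lower in G20 than in CC livers. The summed level of the 7 markers was 895.7 to 1086 times the 75th percentile in CC, against 1661 to 1876 in NC and 1650.4 to 2020.4 in G20. The part of these markers in the CC differences was not tested. Other cell types' markers also moved in CC livers: 3 of 6 stellate and fibroblast genes, 3 of 6 endothelial genes and 2 of 3 tested neuron genes were higher than in NC, and 1 endothelial gene, Tie1, was lower. Over all genes 20.5% were called higher and 20.6% lower in CC than in NC livers. In G20 livers Ttr was the 1 hepatocyte marker of 7 that differed from NC (−0.64), and Tie1, Lyve1, Lrat and Epcam were lower and Pdgfra higher. Over all genes 3.99% were called higher and 3.1% lower in G20 than in NC livers. The part of these markers in the G20 differences was not tested.

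Otc, the enzyme that joins carbamoyl phosphate to ornithine and is encoded on the X chromosome, was not called in any comparison of liver groups as reported. Its brightest probe ranged from 3.35 to 4.31 in G20, 3.46 to 4.24 in CC and 3.52 to 3.82 in NC, and the groups overlapped. The difference was 0.24 ± 0.21 between G20 and NC (limma adjusted p = 0.513), 0.35 ± 0.21 between CC and NC (adjusted p = 0.203) and −0.10 ± 0.21 between G20 and CC (adjusted p = 0.711). CC replicate 1 stood below the other CC arrays, and without it the CC difference from NC was 0.53 (adjusted p = 0.0382). The other 2 probes gave differences of 0.15 and 0.25 between G20 and NC, also not called.

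Ass1, argininosuccinate synthase, which brings the nitrogen of aspartate into the cycle, was lower in G20 than in NC livers. Its levels were 6.02, 6.02, 6.11 and 5.70 in G20, 5.91, 5.84, 6.31 and 6.60 in CC, and 6.58, 6.70, 6.50 and 6.49 in NC. All G20 arrays lay below all NC arrays, and 1 of the 4 CC arrays reached into the NC range. The difference between G20 and NC was −0.60 ± 0.16, a fold of 0.658 (limma adjusted p = 0.0422), and that between CC and NC was −0.40 ± 0.16 (adjusted p = 0.062). The CC difference passed the threshold in the deposited matrix (−0.64, limma adjusted p = 0.0191), with the mean over probes (−0.54, adjusted p = 0.00975) and without CC replicate 4 (−0.55, adjusted p = 0.00966). The other probe for Ass1, whose mapped position overlaps the first, had levels of 5.61, 5.77, 5.93 and 5.42 in G20, 5.48, 5.70, 5.99 and 5.84 in CC, and 6.46, 6.57, 6.42 and 6.25 in NC. With every probe tested on its own, it was lower in G20 by −0.74 ± 0.13 (limma adjusted p = 0.00913) and in CC by −0.67 ± 0.13 (adjusted p = 0.00214) than in NC. The call of the brightest probe in G20 was lost in 12 of 21 alternatives, including the removal of any single G20 or NC array, and the difference was −0.13 after normexp background correction (adjusted p = 0.682).

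Asl, which splits argininosuccinate into arginine and fumarate, and Arg1, the liver arginase that releases urea, were not called in any liver comparison as reported. Asl ranged from 2.84 to 3.42 in G20, 3.15 to 3.68 in CC and 3.42 to 3.50 in NC, with a difference of −0.26 ± 0.14 between G20 and NC (limma adjusted p = 0.275). The SD was 0.25 in G20 and 0.03 in NC, and 3 of the 4 G20 arrays lay below the NC arrays. Arg1 had levels of 4.74, 4.89, 4.998 and 4.63 in G20, 5.28, 4.68, 5.12 and 5.12 in CC, and 5.06, 5.36, 5.12 and 5.34 in NC. Every G20 array was below every NC array, and the CC arrays overlapped both. The Arg1 difference was −0.40 ± 0.13 between G20 and NC (limma adjusted p = 0.0941), and it passed the threshold after median centring (−0.47, adjusted p = 0.0456) and without CC replicate 2 (adjusted p = 0.0478). Between CC and NC it was −0.17 as reported and −0.51 in the deposited matrix, where it was called (limma adjusted p = 0.0426). Between G20 and CC, Arg1 passed the threshold after median centring (−0.37, limma adjusted p = 0.0304) and without CC replicate 2 (−0.36, adjusted p = 0.0289). Asl did so there after median centring (−0.42, limma adjusted p = 0.0411) and without CC replicate 1 (−0.39, adjusted p = 0.0246).

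**Figure D3:**
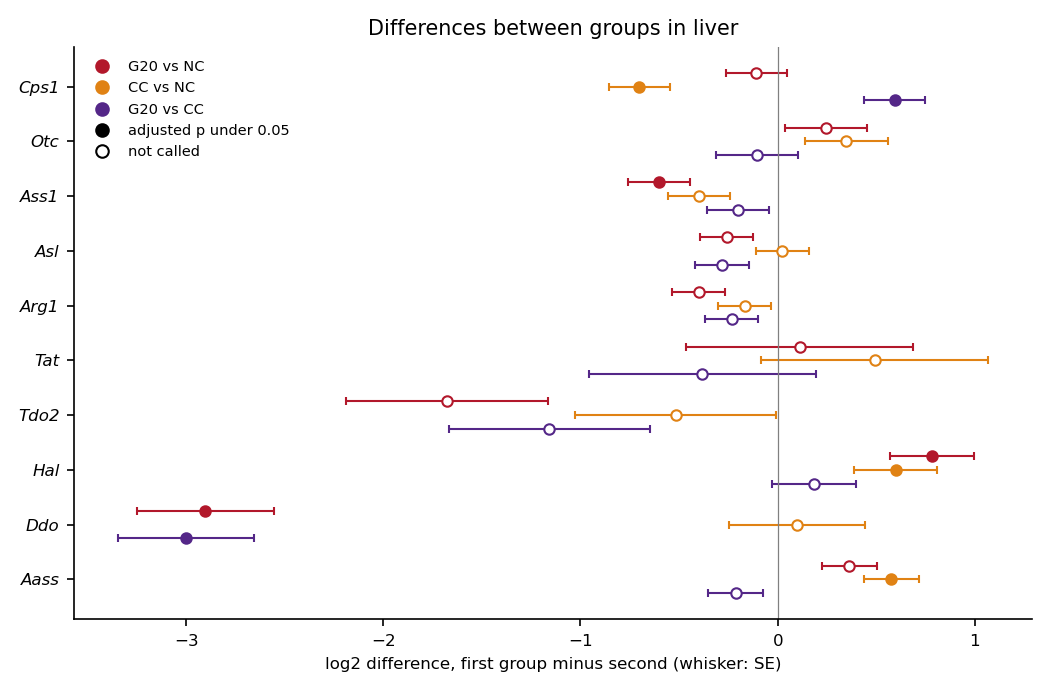
Log2 differences in liver for each gene (horizontal axis, whisker: SE) in 3 comparisons, G20 minus NC, CC minus NC and G20 minus CC, each from 4 arrays per group. Filled symbols have a limma adjusted p under 0.05. Ddo lies at −2.90 for G20 minus NC and −3.001 for G20 minus CC, and the other filled symbols lie between −0.70 and 0.78.

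Tat, tyrosine aminotransferase, had the widest spread of the 10 genes over NC livers, with an SD of 1.36. Its levels were 2.90, 3.74, 4.53 and 4.02 in G20, 4.69, 3.57, 4.38 and 4.08 in CC, and 3.55, 4.39, 4.96 and 1.83 in NC. The NC arrays alone spanned the range of both other groups. The difference of 0.11 ± 0.58 between G20 and NC was not called (limma adjusted p = 0.933), nor were those of the other liver comparisons.

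Tdo2 had levels of −3.28, −2.31, −1.80 and −3.20 in G20, −1.59, −2.33, −0.65 and −1.40 in CC, and −0.73, −0.46, −0.26 and −2.45 in NC. The G20 arrays lay below 3 of the 4 NC arrays, and the fourth, NC replicate 4, lay among them. The difference between G20 and NC was −1.68 ± 0.51 with the brightest probe (limma adjusted p = 0.0701) and −1.77 ± 0.54 with the other probe tested on its own (adjusted p = 0.0713), and neither was called. Without NC replicate 4, the array that was also lowest for Tat, it was −2.17 (limma adjusted p = 0.0145), and after normexp −1.52 (adjusted p = 0.0275). Without the same array the difference of −1.16 between G20 and CC also passed the threshold (limma adjusted p = 0.0301). Over the 12 liver arrays, levels of Tat and Tdo2 relative to their group means had a Pearson r of 0.83. Those of Cps1 and Ass1 had an r of 0.91. These were the highest values among all pairs of the genes described here, and the lowest was −0.62, for Arg1 and Hal. Between urea cycle genes r ranged from −0.06 (Otc and Arg1) to 0.91. All these values share the centring of each array.

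Hal, histidine ammonia-lyase, which removes the amino group of histidine, was higher in both clone groups than in NC livers. Its levels were 4.37, 3.79, 3.53 and 3.67 in G20, 3.38, 4.01, 3.45 and 3.80 in CC, and 3.21, 2.59, 3.26 and 3.18 in NC. Every array of both clone groups was above every NC array. The difference from NC was 0.78 ± 0.21 in G20, a fold of 1.72 (limma adjusted p = 0.0478), and 0.60 ± 0.21 in CC (adjusted p = 0.041), and G20 and CC differed by 0.18 ± 0.21 (adjusted p = 0.504). The call was lost in 13 of 21 alternatives in G20 and in 8 of 21 in CC. NC replicate 2 was the lowest array, and without it the difference was 0.62 in G20 (adjusted p = 0.118) and 0.44 in CC (adjusted p = 0.117). Both comparisons share the NC arrays.

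Aass, the enzyme of the first steps of lysine breakdown, was higher in CC than in NC livers. It had levels of 4.52, 4.47, 4.35 and 4.29 in G20, 4.24, 4.49, 4.87 and 4.87 in CC, and 3.99, 4.09, 3.88 and 4.21 in NC. All arrays of both clone groups were above the NC arrays. The difference from NC was 0.36 ± 0.14 in G20 (limma adjusted p = 0.137) and 0.58 ± 0.14 in CC (adjusted p = 0.00642). In the deposited matrix the CC difference was 0.39 (limma adjusted p = 0.0895). The G20 difference from NC was 0.86 after normexp (limma adjusted p = 0.0281), and G20 was lower than CC without CC replicate 1 (−0.34, adjusted p = 0.0387).

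Ddo was 7.48-fold lower in G20 than in NC livers, the largest difference among the 10 genes in this comparison. Its brightest probe lies at chr10:40337768-40337827 (mm8, plus strand). The levels were −2.75, −3.92, −4.47 and −4.75 in G20, −1.29, −1.04, −0.82 and −0.74 in CC, and −0.79, −1.10, −1.41 and −0.98 in NC. The G20 arrays spanned 2 units and all lay below the other groups, whereas CC and NC arrays overlapped. The difference was −2.90 ± 0.35 between G20 and NC (limma adjusted p = 0.000986) and −3.001 ± 0.35 between G20 and CC (adjusted p = 4.02e-05), with 0.10 ± 0.35 between CC and NC (adjusted p = 0.843). All 12 liver arrays were above background for this probe. The call against NC was kept in 21 of 21 alternatives, with values from −3.31 to −1.93.

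The CC level of Ddo depended on which values were used. In the scanner files the processed signal was 68.7, 33.2, 19.0 and 19.9 in G20 livers, 103.5, 109.5, 143.5 and 142.6 in CC livers, and 165.2, 137.8, 121.9 and 133.0 in NC livers. In the deposited matrix the intensity was 58.0, 25.5, 16.8 and 13.8 in G20, 15.4, 20.0, 23.5 and 25.3 in CC, and 236.4, 188.3, 155.0 and 208.0 in NC. There Ddo was lower in CC than in NC by −3.24 (limma adjusted p = 0.000544), and G20 and CC differed by 0.23 (adjusted p = 1.00). Relative to each array's median ratio of matrix to scanner values, the CC columns were lower by a log2 factor of −3.26 for this probe, against −0.08 in G20 and 0.02 in NC. Against NC, Ddo in G20 was called lower with both sources. No source used here says where the CC factor of the matrix comes from.

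The other Ddo probes were dimmer. The probe at chr10:40363247-40363306 (mm8, plus strand) had levels of −4.28, −5.96, −6.52 and −6.59 in G20 livers, −4.35, −3.98, −3.94 and −4.29 in CC livers, and −5.22, −3.74, −4.49 and −5.35 in NC livers, and was above background on 1, 4 and 2 of the 4 arrays of G20, CC and NC. It differed by −1.14 ± 0.48 between G20 and NC (limma adjusted p = 0.178) and was lower in G20 than in CC by −1.70 ± 0.48 (adjusted p = 0.013). One G20 array lay within the NC range for it, the same array that was highest with the brightest probe. The probe at chr10:40330830-40330889 was above background on 1 of the 24 arrays, an NC liver, and was not tested.

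**Figure D4:**
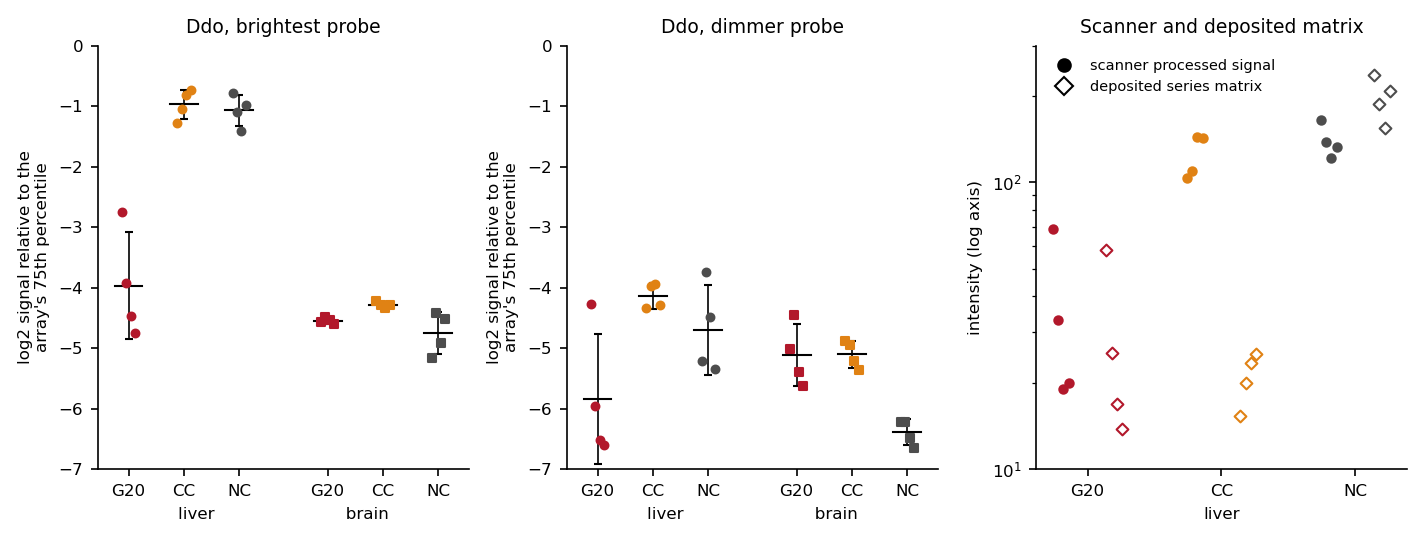
Ddo on single arrays. The left and middle panels give the log2 signal relative to the array's 75th percentile for the brightest and a dimmer probe in liver and brain of G20, CC and NC (mean and SD over 4 arrays). The right panel gives liver intensities of the brightest probe on a log axis from the scanner files and the deposited matrix. CC livers lie near NC livers in the scanner values (103.5 to 143.5) and near G20 livers in the matrix (15.4 to 25.3).

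The lower Ddo level of G20 was found in liver, and the effect differed from that in brain. In brain its brightest probe had levels of −4.58, −4.48, −4.54 and −4.61 in G20, −4.22, −4.30, −4.34 and −4.29 in CC, and −5.16, −4.42, −4.91 and −4.52 in NC. The 4 G20 brain arrays lay within the NC range, and the liver arrays of G20 reached down to these brain levels. The difference between G20 and NC was 0.20 ± 0.13 in brain (limma adjusted p = 0.44), and the liver difference minus the brain difference was −3.10 ± 0.39 (adjusted p = 0.000131). Ddo was the only one of 7 genes measured in both tissues whose G20 effect differed between them (3.85% of 14698 genes called, 2.21% with a lower value in liver), in all 32 alternatives run. The dimmer probe was higher in brain of G20 than of NC by 1.27 ± 0.22 when tested on its own (limma adjusted p = 0.0148) and higher in CC than in NC by 1.29 ± 0.22 (adjusted p = 0.000214), a difference that the brightest probe did not show between G20 and NC.

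For the genes called between G20 and NC livers, the 250 bases before the annotated start are given 5′ to 3′ from RefSeq (GRCm38.p6, plus strand), since these are the genes whose levels differed. They are chr10:40629761-40630010 for Ddo, chr10:93488518-93488767 for Hal and chr2:31470020-31470269 for Ass1. Capitals mark matches on either strand to CCAAT (the CCAAT box), TATAAA (the TATA box), GGGCGG (the GC box) and TTGCNNAA (a loose form of the C/EBP motif).
Ddo: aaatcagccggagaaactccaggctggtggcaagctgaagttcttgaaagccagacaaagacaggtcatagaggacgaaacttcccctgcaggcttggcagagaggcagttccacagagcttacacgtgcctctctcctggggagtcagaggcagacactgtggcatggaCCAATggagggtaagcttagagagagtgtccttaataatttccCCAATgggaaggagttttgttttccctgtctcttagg
Hal: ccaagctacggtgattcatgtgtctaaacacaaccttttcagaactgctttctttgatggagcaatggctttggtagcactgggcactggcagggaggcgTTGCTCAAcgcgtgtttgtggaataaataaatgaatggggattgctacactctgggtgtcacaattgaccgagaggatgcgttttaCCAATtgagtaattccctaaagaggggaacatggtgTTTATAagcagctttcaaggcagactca
Ass1: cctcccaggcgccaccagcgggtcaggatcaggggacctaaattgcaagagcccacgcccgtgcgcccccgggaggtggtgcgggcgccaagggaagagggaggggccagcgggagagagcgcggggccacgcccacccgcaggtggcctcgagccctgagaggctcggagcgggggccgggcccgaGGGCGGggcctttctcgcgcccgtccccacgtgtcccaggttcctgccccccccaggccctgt
The Ddo window holds CCAAT on the plus strand, starting 80 and 37 bases before the start, and Hal holds one 64 bases before it. The Ass1 window holds no CCAAT and has a GC content of 75.6%, beside 51.2% for Ddo, 45.6% for Hal and a median of 52.4% over all promoters. Of the 7 genes with a promoter in the reference table (Otc, Ass1, Tat, Tdo2, Hal, Ddo and Aass), 5 hold CCAAT, against 33.8% of 32851 promoter windows of this length. TATAAA is in 2 of the 7 (12.4% of all windows), TTGCNNAA in 2 (9.56%), GGGCGG in 1 (32.7%) and TGTTCT, part of the glucocorticoid receptor's element, in 0 (16.1%). No match overlaps another in the 3 windows shown. CCAAT is present in Tat, Tdo2 and Aass as well, genes that were not called between G20 and NC, and these matches are letters in a window, not sites shown to be bound.

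In brain, 7 of the 10 genes passed the filter for signal (Otc, Arg1 and Tdo2 did not), and 0 of these were called between G20 and NC by limma (1.68% of 18143 genes called, 1.14% as higher and 0.535% as lower). At an unadjusted p under 0.05 there was 1, Hal. Its levels were −4.15, −4.04, −4.05 and −4.18 in G20 brains, −4.49, −4.28, −5.06 and −4.88 in CC brains, and −5.35, −4.95, −4.35 and −5.04 in NC brains. All G20 arrays lay above all CC and NC arrays, and Hal was the 1 gene of the 7 whose G20 and NC arrays did not overlap (12.2% of all genes). Its difference from NC was 0.82 ± 0.20 (limma adjusted p = 0.0671), and 1.01 without NC replicate 3 (adjusted p = 0.0146).

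CC brains differed from NC brains in 6 of the 7 genes, 3 higher and 3 lower, beside 69.5% of all genes (42.3% higher and 27.2% lower). G20 brains differed from CC brains in 4 of the 7, 3 higher and 1 lower, beside 67.8% (27.6% and 40.1%). Arrays did not overlap for 5 of the 7 between CC and NC (64% of all genes) and for 4 between G20 and CC (59.6%). Aass was higher in CC, with levels of −3.87, −4.11, −3.71 and −3.80 in G20, −2.42, −2.58, −2.79 and −2.94 in CC, and −3.71, −3.87, −3.97 and −3.82 in NC. All CC arrays lay above the arrays of both other groups. The difference was 1.16 ± 0.12 between CC and NC (limma adjusted p = 3.82e-06) and −1.19 ± 0.12 between G20 and CC (adjusted p = 3.88e-06), but 0.07 and −0.14 in the deposited matrix, where none of the 6 genes with values was called in either comparison. Tat and Ddo were also higher in CC than in NC brains (0.40 and 0.47). Ass1, Asl and Cps1 were lower (−0.72, −0.38 and −0.51). Tat was above background on 2 CC and 3 NC arrays, which overlapped, and Ddo on 3 CC and 4 NC arrays. Cps1 was above background on no CC array. Tat was also not above background on CC replicate 1, at −4.73, which is higher than the NC mean of Cps1 (−4.85). Cps1 in brain is therefore given no fold against a floor. Tdo2 and Otc, undetected in brain with the probe used between tissues, also averaged higher in CC (−6.23 and −6.52) than in NC (−7.50 and −7.22). In CC brains the 75th percentile of the signal was 386.7 to 449.6, against 788.0 to 908.9 in NC brains and 701.4 to 842.5 in G20 brains, and the part of this in the result was not tested. The call for Tat was lost without CC replicate 1 or 4 or NC replicate 1 or 4 (limma adjusted p from 0.0508 to 0.073), and that for Cps1 without NC replicate 3 (adjusted p = 0.0574).

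Cell type markers were among the genes called between CC and NC brains, where 42.3% of all genes were higher and 27.2% lower. Between G20 and CC brains these shares were 27.6% and 40.1%. Of the 4 tested hepatocyte markers, Alb, Afp and Ahsg were higher in CC than in NC brains by 1.76, 1.89 and 2.24. They were lower in G20 than in CC brains, at −1.40, −1.54 and −1.81. The fourth, Ttr, was not called in either comparison (−0.09 and −1.35). Between CC and NC, 3 of 5 macrophage and microglia genes were higher (Adgre1 by 1.25, C1qb by 0.99), as were 2 of 6 endothelial and 2 of 5 stellate and fibroblast genes. Astrocyte genes had 2 of 4 higher (Fabp7 by 0.81) and 1 lower, and neuron genes 2 of 6 higher and 3 lower. Between G20 and NC brains 0 of the 4 hepatocyte markers were called by limma (0 at an unadjusted p under 0.05). Of the 5 macrophage and microglia genes 1, C1qb, was lower (−0.52). Over all genes 1.14% were called higher and 0.535% lower there. The part of these markers in the brain differences was not tested.

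Few of the other genes of these pathways differed between G20 and NC livers. Of 92 tested in 10 lists, 3 were higher and 3 lower, beside 3.99% and 3.1% of all genes. Ivd (leucine breakdown) was higher by 0.59, Phykpl (hydroxylysine breakdown) by 0.54 and Klf15 (a transcription factor of amino acid breakdown) by 0.36. Qdpr (which recycles the cofactor of phenylalanine hydroxylase), Kyat1 (kynurenine aminotransferase) and Gpt2 (mitochondrial alanine aminotransferase) were lower, at −0.60, −0.57 and −0.51 (limma adjusted p from 0.0195 to 0.0477 over the 6). None of the 10 urea cycle partners, 4 genes of histidine breakdown, 10 of serine, glycine and threonine breakdown or 9 of methionine and cysteine breakdown was called. The median difference over the 92 genes was 0.02, as over all genes.

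CC livers differed from NC livers in 33 of the 92, with 22 higher and 11 lower, a share below the 41% called over all genes (20.5% higher and 20.6% lower). Branched-chain amino acid breakdown had 5 of 16 higher (among them Aldh6a1, 0.85, and Bckdhb, 0.77) and 2 lower (Bcat2, the aminotransferase that starts it, at −0.80). Tryptophan and kynurenine breakdown had 4 of 9 higher (Kyat3, Aadat and Kmo, 0.69, 0.69 and 0.58) and 0 lower, and histidine breakdown 2 of 4 higher (Amdhd1, 0.87, and Uroc1, 0.47), enzymes that follow Hal. Other higher genes were Got2, Dhtkd1, Sardh, Nr3c1 (the glucocorticoid receptor), Glul (glutamine synthetase), Phykpl and Ppara, at 0.60 to 0.77, and other lower genes were Agxt2, Shmt1, Gpt2 and Csad, at −0.85 to −0.55. Foxa1, a forkhead factor of hepatocytes, was not well above background on any CC liver array. Against the floor used for undetected probes it was 4.47-fold lower in CC than in NC, which is not a lower bound (limma adjusted p = 7.32e-06 for the fitted difference). The same probe was also above background on no CC brain array, but on all 4 NC and all 4 G20 brain arrays. CC arrays of both tissues shared a scan session, and its part in this was not tested. G20 differed from CC in 31 of the 92, with 18 higher and 13 lower, also a share below that over all genes (45.6%, with 23.7% higher and 21.9% lower). Against the same floor, Foxa1 was 5.38-fold higher in G20 than in CC. Agxt2, Bcat2, Shmt1, Dbt, Aldh4a1, Fah, Gcsh and Aldh7a1 were higher by 0.42 to 0.96. Kyat1, Aldh6a1, Kyat3, Nr3c1, Kmo, Ppara, Uroc1, Mat1a, Qdpr, Glul and Ahcy were lower, at −0.99 to −0.41. The comparison of G20 with CC had 29 called genes of any kind in the deposited matrix, against 7420 in the scanner values.

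In brain, 75 of the other pathway genes were tested. Between G20 and NC 3 were higher and 0 lower, beside 1.68% of all genes called (1.14% higher and 0.535% lower): Csad (0.59, limma adjusted p = 0.000414), Kyat3 (0.41, adjusted p = 0.0497) and Aldh6a1 (0.28, adjusted p = 0.034). Between CC and NC 48 were higher and 15 lower, beside 42.3% and 27.2% of all genes. Between G20 and CC 13 were higher and 40 lower, beside 27.6% and 40.1%. The G20 effect differed between the tissues for 4 of 72 genes, beside 3.85% of all genes. All 4 had a lower value in liver (2.21% of all genes), Csad (−1.08) and Slc38a4 (−1.04) by most. Between tissues, 87 of 95 were higher in liver than in brain in each of the 3 groups, beside 46.3% of all genes in G20, 44.2% in CC and 46.4% in NC. Their median difference was 3.71 in G20, 3.35 in CC and 3.73 in NC, against 0.09, 0.09 and 0.07 over all genes.

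Likeness to other genes was described over the 12 liver arrays by Pearson's r, values that reflect the group differences as well as the spread within groups. Ddo was most like Gpc4, a cell-surface glypican (r = 0.98), followed by a probe that has no gene name (r = 0.97). Tdo2 was most like Abcg8, a sterol transporter (0.96), and Slc17a4 (0.92), and Aass was most like Dld, the dihydrolipoamide dehydrogenase (0.96), and Ano9 (0.96). Ass1 was most like Ugt1a6b and Sec14l4 (0.93 each). For the other 6 genes the 2 highest values lay between 0.85 and 0.96.

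**Figure D5:**
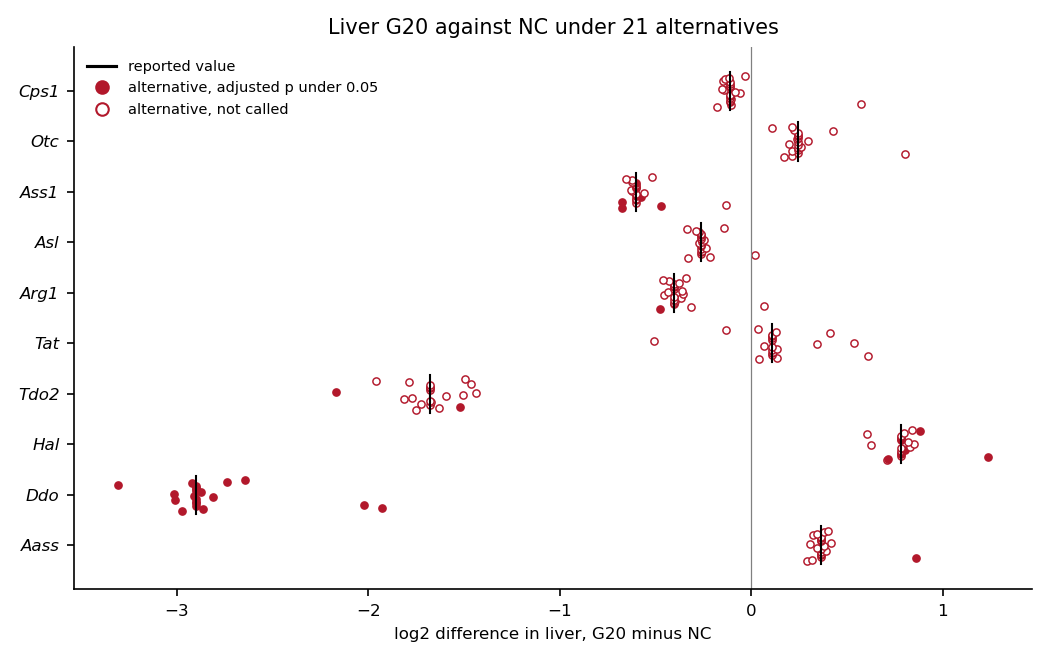
Log2 difference in liver between G20 and NC for each gene under 21 alternative settings (points, filled where the adjusted p is under 0.05) and as reported (vertical line). Ddo is filled in all settings, between −3.31 and −1.93, whereas Ass1 and Hal lie on the same side throughout with open and filled points, and Tdo2 is filled in 2 of 21.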

How the data were processed

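Total RNA of newborn brain and liver was labelled with Cy3 and hybridised to single-colour Agilent arrays, 1 array per sample. Spot intensities are those the authors deposited as scanner files, made with Agilent Feature Extraction 9.5.3.1 per the file headers, with background subtraction and detrending and no scaling between arrays. Other flags per spot (outlier, well above background, saturated) come from the same deposited files. The intensities of the series matrix were deposited by the authors for 34140 probes, and their scaling and their centring between arrays are not given in the sources used here; its column medians are 223.62 to 392.76 for NC and G20 and 299.93 to 489.49 for CC. Compared array by array with the scanner values, the matrix follows the processed signal in NC and G20 (SD of the log2 ratio over probes 0.0103 to 0.0554) but not in CC (0.627 to 0.657), so the scanner files are the main source. The number of matrix columns left unused is 0. Array numbers limit the precision.

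Each level is log2 of the processed signal, averaged over spots of a probe without outliers, minus the array's 75th percentile. Genes were named through RefSeq (GRCm38.p6) by accession for 23374 probes and by synonym for 2919, and 14881 probes kept the file's name. Probe positions are in mm8, per the file headers. Within each tissue, probes entered the tests where each of the 4 arrays of some group measured them well above background, and a gene is represented by its brightest kept probe. Tests used limma 3.58.1 in R 4.3.3 with 1 fit per tissue for all 3 groups and 1 fit over both tissues, adjusted over all genes kept by the Benjamini-Hochberg method, with a threshold of 0.05. The fit was tested on simulated data. Where a group had no array above background, a fold against a floor replaces the fitted fold, except for Cps1 in brain. The bright group's mean is set against a floor on each dim array. That floor is the higher of the probe's own signal and the lowest signal among probes well above background. It is no ceiling for an undetected probe: Tat at −4.73 on CC brain replicate 1 was not above background. These folds are therefore not lower bounds.

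The 10 genes and the lists were chosen with earlier results of these data known. Of the other pathway genes and regulators, 97 of 99 are on the array; the text names the called ones with the largest differences, up to 3 per list and 20 per liver comparison, and at most 5 in brain and between tissues. For likeness it names the 2 genes with the highest r. Replicate numbers were checked for pairing by the correlation of deviations from group means, and did not pair samples across groups within a tissue. Between liver and brain of CC every pair was over 0.1 (0.138, 0.167, 0.153 and 0.119), and the CC arrays of both tissues carry the same source names. For CC replicate 4 the best other number had 0.094. In NC the values were 0.014, 0.096, 0.154 and 0.009, and in G20 0.142, 0.017, 0.070 and 0.056. The labels do not state that arrays of one number are one animal, so pairing is not established.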

Additional observations from a re-analysis of the deposited data

Results flagged for a closer look

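Ddo responded differently in the 2 tissues: the difference between G20 and NC in liver minus that in brain was −3.10 on the log2 scale (limma adjusted p = 0.000131), with −2.90 in liver and 0.20 in brain. Among 51 sets of 4 arrays examined for a single array far from the others, 2 were flagged. Chance flags about 1 in 20 such sets, so 2 of 51 is no more than chance gives. The lowest CC liver array for Otc was at 3.46, with the next at 4.14 and the highest at 4.24. The lowest NC liver array for Hal was at 2.59, with the next at 3.18 and the highest at 3.26.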

How the results depend on the processing

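The call for Ddo between G20 and NC livers held in all 21 alternatives run, and its tissue difference in all 32. The number of the 10 genes called between G20 and NC livers, 3 as reported, was 1 with no filter on dim probes and 1 with the replicate block, in which Ass1 had a limma adjusted p of 0.0943 and Hal of 0.0995; the replicate numbers do not pair these samples. Under the same block Hal between CC and NC livers had an adjusted p of 0.0757. Otc between CC and NC livers (adjusted p = 0.0493) and Tdo2 between G20 and CC livers (0.0466) passed the threshold under it. Between liver and brain of CC, where the labels do not state whether arrays of one number are one animal, the block left all 10 calls as they were. Leaving out 1 array at a time gave 1 to 4 for G20 against NC in liver, 2 to 4 for G20 against CC in liver and 0 to 1 for G20 against NC in brain. Between G20 and CC livers (2 as reported) median centring gave 4, quantile normalization 1 and the deposited matrix 0. Normexp background correction gave 0 between CC and NC livers, 1 between CC and NC brains and 0 between G20 and CC brains. The deposited matrix gave 0 in both brain comparisons with CC and 6 between liver and brain of CC. In brain, G20 against NC gave 1 with the mean over probes and 1 with every kept probe tested on its own, an alternative chosen after seeing the data, in both cases through Ddo. Directions turned with normexp for Cps1 between CC and NC brains (1.19) and Hal between G20 and CC brains (−0.37). In the deposited matrix they turned for Ddo between CC and NC livers (−3.24), G20 and CC livers (0.23) and liver and brain of CC (−0.70), and for Asl between CC and NC brains (0.12) and G20 and CC brains (−0.13). The causes were not tested.

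Counts over all genes moved by more than 1.5 times as follows. In liver G20 against NC (1154) gave 5053 with normexp and 710 with the block, CC against NC (6675) gave 217 with normexp, 10298 with no filter and 1401 in the matrix, and G20 against CC (7420) gave 2264, 14654 and 29. In brain G20 against NC (304) gave 2 with normexp, 133 with no filter, 146 with the block and 152 with only the groups compared. In brain CC against NC (12614) gave 5325 with normexp, 20090 with no filter, 125 in the matrix and 19017 with every probe, and G20 against CC (12299) gave 3710, 19616, 225 and 18564. Liver against brain in CC (16677) gave 9671 with normexp, and the tissue difference (566) gave 961 with no filter. Single arrays also moved counts: G20 against NC ranged from 573 to 1386 in liver, lowest without G20 replicate 2, and from 116 to 506 in brain, lowest without G20 replicate 1.

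The share of called genes that were higher was 56.2% for G20 against NC in liver, but 33.7% with median centring and 15.95% with normexp. It was 49.9% for CC against NC in liver (14.7% with normexp) and 52.1% for G20 against CC in liver (35.5% with median centring). For G20 against NC in brain it was 68.1% (57.9% with quantile normalization). With normexp it was 50% there, of only 2 called genes. It was 40.8% for G20 against CC in brain (28.6% with median centring) and 52.1% for liver against brain in NC (70.4% with normexp). For the tissue difference it was 42.6% (29.8% with median centring, 12% with normexp). The median of all genes was 0.15 between CC and NC brains, and 0.28 with median centring and 0.39 with normexp. Genes near background, such as the dimmer Ddo probe, are limited by signal over background.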
